A study of Mus musculus with 10 samples.

Results

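The collagen and laminin genes of the mouse were compared between macrophages sorted from lung metastases and macrophages sorted from normal lung. Members were every gene symbol made of Col, a number, a and a number, or of Lam, one of the letters a, b and c, and a number. Of the 24538 genes in the count files, 55 matched, 44 collagen genes and 11 laminin genes. Only 10 of the 55 reached a mean FPKM of at least 1 in either group and were tested. FPKM is a level per transcript length, scaled to the mapped fragments of the library. Of the 10, 6 passed that limit only through their level in MAMs, 2 only through their level in RAMs, and 2 in both.

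MAMs, the metastasis-associated macrophages, were sorted as CD11B+ and CD11C- cells from dissected lung metastases. The metastases came from wild-type C57BL6/J female mice that were injected through the tail vein with E0771-LG, a breast cancer line of the mouse, at 6 to 8 weeks of age. RAMs, the resident alveolar macrophages, were the CD11C+ and CD11B- cells of normal lung from wild-type C57BL6/J females. Both populations were FSC hi, MRC1+, LY6C-, F4/80+ and CD45+, the labelled age was 8 to 10 weeks in both, and alpha-amanitin and actinomycin D were present in the digestion of all tissues. There were 5 libraries of each. Per the labels, metastases of 2 to 4 mice were pooled for a MAM library. The methods of the study give a wider range for pools and say that a sample can also be a single mouse. Neither says that no mouse gave tissue to more than 1 library, so p-values measure only the spread between these libraries.

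Collagens are triple-helical proteins of the extracellular matrix. Fibrillar collagens such as types I, III and V form the fibres of connective tissue, type VI forms beaded filaments, and type IV forms the sheet of basement membranes. Laminins are cross-shaped trimers of an alpha, a beta and a gamma chain, and they form the other network of basement membranes. A trimer is secreted when it holds an alpha chain. In lung, fibroblasts, mural, endothelial, epithelial and mesothelial cells are the usual sources of these proteins, and macrophages are better known for taking collagen up and degrading it.

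Between 50746305 and 87523247 counts per library lay on genes, with a median of 66942988 in MAMs and 52760267 in RAMs. Where a library has no count, up to 3 counts may have been missed, or 0.0431 to 0.0671 CPM. CPM, the count scaled to a common library size after TMM normalization, compares a gene between libraries and not one gene with another. Itgam, the gene of CD11B, lay between 5848 and 6844 CPM in MAM libraries and between 59.5 and 72.2 CPM in RAM libraries. Itgax, the gene of CD11C, lay between 144 and 240.0 CPM and between 879.8 and 1110.4 CPM. MAM replicate 1 stood apart in mesothelial markers. Without the keratin gene Krt19, the other 6 genes of that list summed to 14.3 CPM in this library and to 0.150 to 1.68 CPM in the other MAM libraries, against 0.166 to 3.22 CPM in RAMs.

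The members were rare transcripts. Together they made up 0.0132 to 0.0238% of the counts on genes in MAM libraries and 0.00916 to 0.0124% in RAM libraries. A mean FPKM over 5 was reached by Lamc1 alone. Another 20 members had a mean FPKM between 0.1 and 1 in the group where they were higher, and 25 had a mean under 0.1 in both groups. Of these 25, 6 had no count in any library (Col6a5, Col9a1, Col11a1, Col22a1, Col26a1 and Col28a1). The last member inside the limit was Col14a1 at 1.00 FPKM in MAMs, and the first outside was Col6a1 at 0.989 FPKM.

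Of the 10 tested members, 5 rose in MAMs (Lamc1, Lamb1, Col4a1, Col1a1 and Col14a1) and 2 fell (Col15a1 and Col20a1). The call asked for more than a 2-fold change and for an adjusted p under 0.05 from the quasi-likelihood test of edgeR with Benjamini-Hochberg adjustment over all 11571 genes tested. By the same rule 15.3% of all tested genes were higher in MAMs and 15.1% were lower. In 6 of the 10, MAM and RAM libraries did not overlap, and this was so for 44.9% of all tested genes. The median log2 fold change of the 10 was 1.10, against -0.02 over all tested genes, and a member that passed only through one group had to be higher there. In a fit without a filter on level, which took every gene with a count, 15 of 49 members were higher in MAMs and 7 were lower. Of all 18035 genes in that fit 13.0% were higher and 12.9% lower. The median of the 49 members was 0.97, also with the 6 genes at 0 in one group set to the bound that 3 counts per library allow, and the median of all genes was -0.05.

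**Figure D1:**
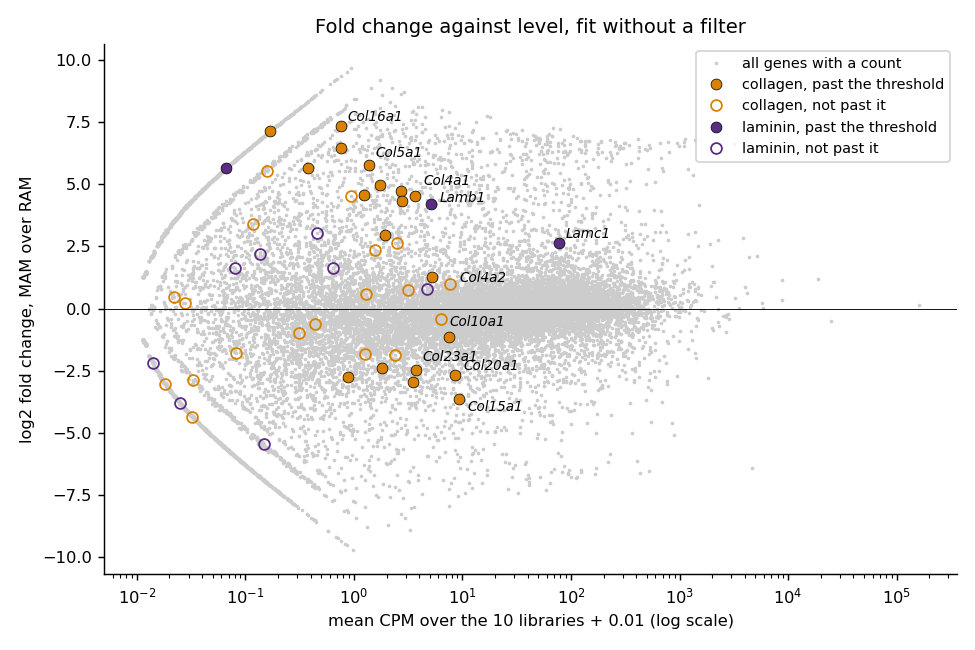
The log2 fold change of MAMs over RAMs in the fit without a filter (vertical axis) is plotted against the mean CPM over the 10 libraries plus 0.01 on a log scale (horizontal axis). Grey points are all 18035 genes, orange collagens and purple laminins, filled where called. Lamc1 lies far to the right of all other members, and the curved edges at low levels are genes at 0 in a group, whose plotted values depend on the prior count.

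The laminin genes were dominated by a gamma chain. Lamc1, which encodes the gamma chain found in most laminins, was the most abundant member per length in MAMs, at 17.7 FPKM, and was at 2.99 FPKM in RAMs. It was at 128, 108, 152, 129 and 149 CPM in MAM replicates 1 to 5 and at 22.1, 18.8, 20.8, 24.8 and 22.4 CPM in RAMs. The groups lay far apart, and each held together closely, with a coefficient of variation of 13.4% in MAMs and 10.1% in RAMs. The log2 fold change was 2.61 (standard error, SE, 0.117, adjusted p = 5.3e-11, edgeR). Lamc1 (ENSMUSG00000026478.14) lies at chr1:153218922-153332786 on the minus strand of GRCm38, with 28 exons, and no other annotated gene shares its exons. RAM libraries held 1003 to 1290 Lamc1 counts, well above 0 in each.

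Lamb1, the beta chain of the most widespread laminins, rose as well. Its levels were 6.10, 4.84, 14.3, 8.09 and 15.6 CPM in MAM replicates 1 to 5 and 0.223, 1.34, 0.166, 0.814 and 0.149 CPM in RAMs. Every MAM library lay above every RAM library, with a log2 fold change of 4.16 (SE 0.653, adjusted p = 6.0e-05, edgeR). Per length it was at 1.57 FPKM in MAMs and 0.0472 in RAMs. The FPKM of Lamc1 was 7.79 to 22.6 times that of Lamb1 in MAM libraries and 24.7 to 202 times in RAM libraries. The RAM ratios are uncertain, because RAM libraries held only 7 to 89 Lamb1 counts. RAM replicate 2 had the most of them, 89, but a Lamb1 FPKM of only 0.0205. Lamb1 (ENSMUSG00000002900.16) lies at chr12:31265234-31329644 on the plus strand of GRCm38.

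No laminin alpha chain could be tested. The highest of the 5, Lama5, the main alpha chain of epithelial basement membranes, reached 0.457 FPKM in MAMs and 0.0769 in RAMs. Its counts gave 6.10, 4.59, 7.0, 4.02 and 8.13 CPM in MAMs and 5.46, 4.97, 3.98, 1.13 and 1.88 CPM in RAMs. These groups overlapped, and Lama5 was not called in the fit without a filter (log2 fold change 0.80, adjusted p = 0.149, edgeR). The FPKM of all 5 alpha chains summed to 0.260 to 0.852 in MAM libraries, where Lamc1 alone was at 14.4 to 20.4 FPKM. Lama1, the embryonic alpha chain, had no count in a MAM library, and Lama2, the muscle alpha chain, was at 0 CPM in 4 of the 5.

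**Figure D2:**
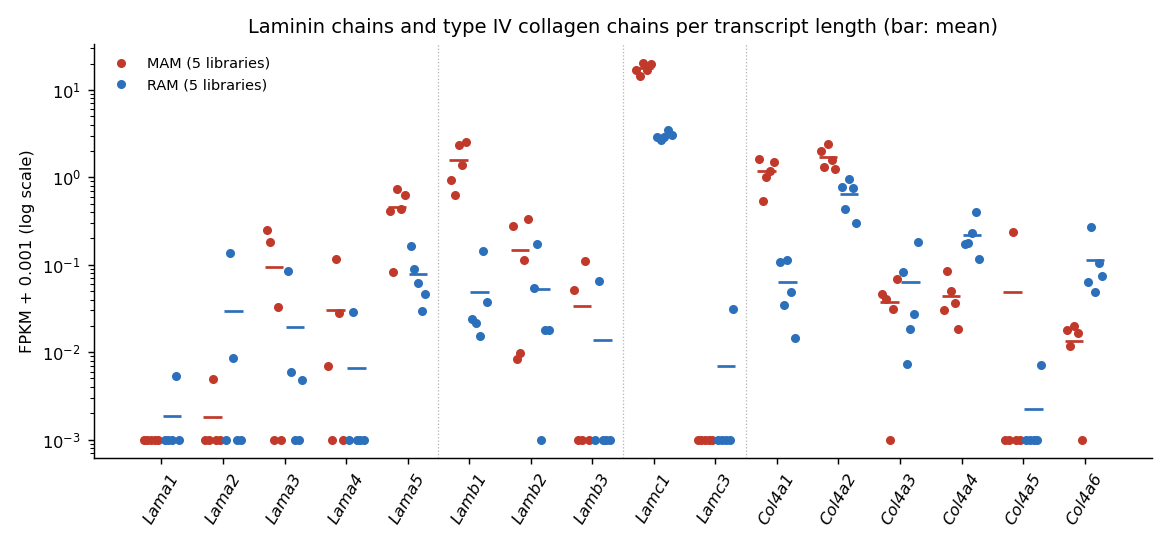
The FPKM plus 0.001 of 10 laminin chains and of the type IV collagen chains is plotted on a log scale for the 5 MAM and the 5 RAM libraries, with a bar at the mean, and dotted lines part alpha, beta and gamma chains and type IV chains. Lamc1 stands above the other chains shown in both groups, Lamb1 and Col4a1 are separated between the groups, and the alpha chains lie below 1 FPKM in each library.

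The sequences before the start sites of Lamb1, which rose, and Col15a1, the tested member that fell most, are shown because both windows lie outside annotated exons. They are RefSeq sequences on GRCm38.p6, plus strand, with capitals at each GGGCGG (GC box), CCAAT and TATAAA on either strand. The Lamb1 window is chr12:31265043-31265233 and that of Col15a1 is chr4:47207762-47208011.
Lamb1: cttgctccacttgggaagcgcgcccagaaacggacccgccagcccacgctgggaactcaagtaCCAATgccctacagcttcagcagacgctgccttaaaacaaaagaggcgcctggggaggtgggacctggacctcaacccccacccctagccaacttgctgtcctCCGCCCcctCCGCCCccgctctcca
Col15a1: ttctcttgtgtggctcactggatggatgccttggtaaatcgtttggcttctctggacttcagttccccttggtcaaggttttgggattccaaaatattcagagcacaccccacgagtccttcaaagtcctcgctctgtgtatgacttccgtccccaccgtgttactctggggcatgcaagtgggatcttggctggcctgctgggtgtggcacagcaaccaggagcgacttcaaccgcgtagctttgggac
The 191 bases of Lamb1 hold 2 GC boxes and 1 CCAAT and have 63.9% G and C. The 250 bases of Col15a1 hold none of the motifs and have 53.6% G and C. Of all windows of the same length, 23.1% hold a GC box and 26.9% a CCAAT at the Lamb1 length, and 32.7% and 33.8% at the Col15a1 length. A TATAAA is in 8.8% and 12.4% of them.

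In type IV collagen, 1 of the chains rose. Col4a1, which encodes a main chain, was at 9.23, 3.09, 5.81, 7.09 and 9.65 CPM in MAM replicates 1 to 5 and at 0.651, 0.165, 0.538, 0.146 and 0.0426 CPM in RAMs. The groups did not overlap, and the log2 fold change was 4.48 (SE 0.656, adjusted p = 3.1e-05, edgeR). RAM libraries held only 2 to 38 Col4a1 counts. Col4a2, its partner in the same trimer, was at 12.7, 7.05, 13.9, 9.10 and 8.26 CPM in MAMs and at 5.15, 5.29, 6.98, 3.96 and 4.99 CPM in RAMs. Its groups did not overlap either, but the log2 fold change of 0.95 (SE 0.272, adjusted p = 0.00763, edgeR) was under the 2-fold limit. Without MAM replicate 2, MAM replicate 5 or RAM replicate 3 it passed that limit, at 1.06, 1.02 and 1.07.

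The partner chains therefore had unlike levels in RAMs, at 0.0631 FPKM for Col4a1 and 0.640 for Col4a2, and near levels in MAMs, at 1.17 and 1.71 FPKM. The genes lie head to head on GRCm38, Col4a1 at chr8:11198423-11312826 on the minus strand and Col4a2 at chr8:11312805-11449287 on the plus strand. Their annotated starts overlap by 22 bases, and the source used here does not give the strand setting of the counting. Of the remaining type IV chains, chosen here after their values were seen, Col4a4 and Col4a6 were lower in MAMs without a filter (log2 fold changes -2.38 and -2.73) at means of 0.219 and 0.111 FPKM in RAMs. Col10a1, a network collagen of growth cartilage, did not pass the test (log2 fold change -0.44, SE 0.280, adjusted p = 0.201, edgeR). Its levels were 3.24 to 6.00 CPM in MAMs and 5.29 to 9.27 CPM in RAMs, and the gene lies within the span of Nt5dc1 on the other strand, which was at 6.13 FPKM in MAMs and 7.78 in RAMs.

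**Figure D3:**
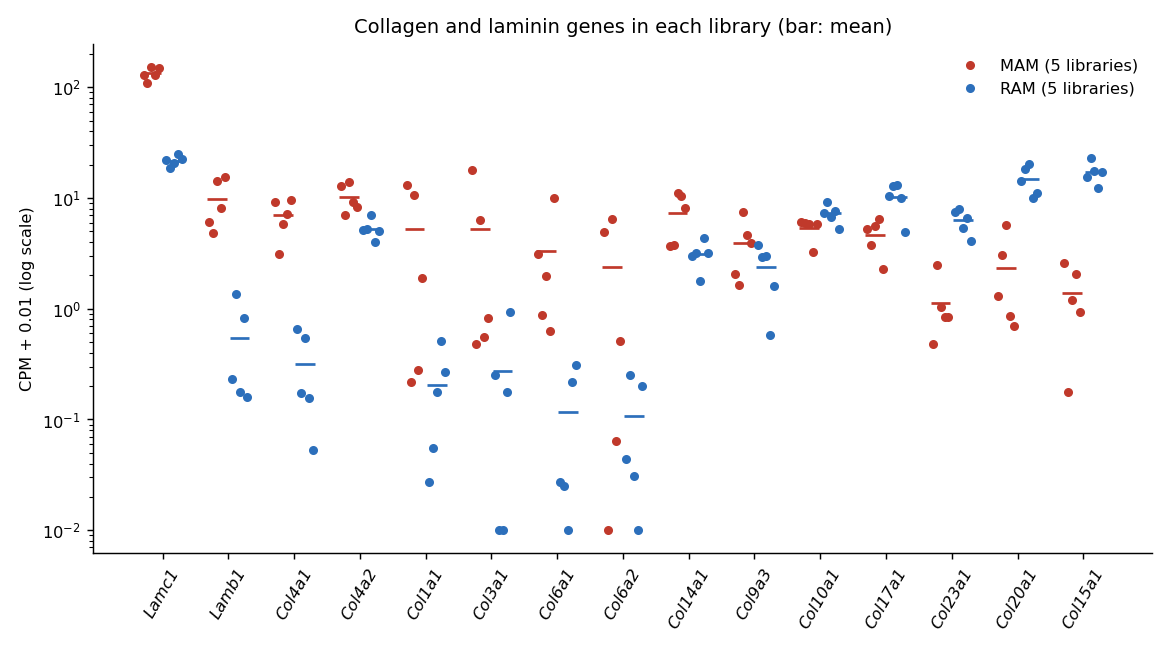
CPM plus 0.01 on a log scale is plotted for the 10 tested members and the 5 most abundant members that were not tested, with 1 point per library (5 MAM, 5 RAM) and a bar at the mean. Lamc1, Lamb1, Col4a1, Col4a2 and Col6a1 are separated upward in MAMs and Col15a1, Col20a1 and Col23a1 downward, and Col1a1, Col3a1, Col6a1, Col6a2 and Col15a1 spread over more than a factor of 10 among MAM libraries.

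MAM libraries lay far apart in the fibrillar collagens. Col1a1, the main chain of the type I fibre, was at 13.1, 0.206, 10.6, 0.271 and 1.90 CPM in MAM replicates 1 to 5 and at 0.0171, 0.0451, 0.166, 0.501 and 0.256 CPM in RAMs. MAM replicates 2 and 4 lay within the range of the RAM libraries, and the other 3 above it. The log2 fold change was 4.74 (SE 1.18, adjusted p = 0.0031, edgeR), and it was 4.05 without MAM replicate 1. With limma on log2(FPKM + 0.1) or log2(FPKM + 1) the call was lost, with log2 fold changes of 2.04 and 0.77. In bulk libraries, fewer cells of a type and less RNA per cell cannot be told apart.

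MAM replicates 1 and 3 were also the highest MAM libraries for its partners. Col3a1, the type III fibre chain, was at 18.0, 0.469, 6.28, 0.543 and 0.819 CPM in MAMs and at 0.240, 0, 0, 0.167 and 0.917 CPM in RAMs. It was called without a filter (log2 fold change 4.31, adjusted p = 0.0109, edgeR), but not without MAM replicate 1, at 2.94. Col1a2, the second type I chain and chosen here after its values were seen, was at 5.51, 0.0562, 6.44, 0.0543 and 1.02 CPM in MAMs and reached 1.57 CPM in RAM replicate 4. It was not called (2.34, adjusted p = 0.187). In MAMs Col1a1 had 1.65 to 5.00 times the counts of Col1a2, and in the 3 RAM libraries with any Col1a2 count 0.286 to 1.33 times. These ratios rest on only 3 Col1a2 counts in each of MAM replicates 2 and 4 and on 6 in RAM replicate 3.

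Type VI collagen, which forms filaments around cells, was as uneven among MAM libraries. Col6a1 was at 3.13, 0.862, 1.95, 0.615 and 10.0 CPM in MAMs and at 0.0171, 0.0150, 0, 0.209 and 0.298 CPM in RAMs. The groups did not overlap, and it was called without a filter (log2 fold change 4.95, adjusted p = 0.00177, edgeR). Col6a2 was at 4.88, 0, 6.44, 0.0543 and 0.503 CPM in MAMs and at 0.0343, 0.240, 0.0207, 0 and 0.192 CPM in RAMs. It was called without a filter (4.57, adjusted p = 0.0194, edgeR), but not without MAM replicate 3, at 3.77. The third chain, Col6a3, chosen after its values were seen, ran from 0.60 to 8.30 CPM in MAMs and from 0.0343 to 2.34 CPM in RAMs and was not called (2.62, adjusted p = 0.0531).

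Of 14 fibrillar, beaded filament and anchoring collagens with more than 10 counts in a MAM library, 6 had their 2 lowest levels in MAM replicates 2 and 4 (Col1a1, Col1a2, Col3a1, Col5a1, Col6a1 and Col6a2). That pair of libraries was chosen with these values known, so the count describes the libraries and is not a test. The coefficient of variation among MAM libraries was 118% for Col1a1 and, of genes not tested, 145% for Col3a1, 117% for Col6a1 and 129% for Col6a2. Among all 14 it ran from 65.6% for Col27a1 to 145% for Col3a1. Of the 2896 tested genes with a mean of 1 to 10 CPM in MAMs, the median coefficient of variation was 40.0%, and 3.52% of them were over 100%. Of the basement membrane genes, Lamb1 was at 49.8%, Col4a1 at 38.4% and Col4a2, whose mean of 10.2 CPM lies just above that range, at 29.0%. The mesothelial markers without Krt19 were also highest in MAM replicates 1 and 3, at 14.3 and 1.68 CPM, against 0.150, 0.326 and 0.244 CPM in MAM replicates 2, 4 and 5. Their part in these collagen levels was not tested.

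**Figure D4:**
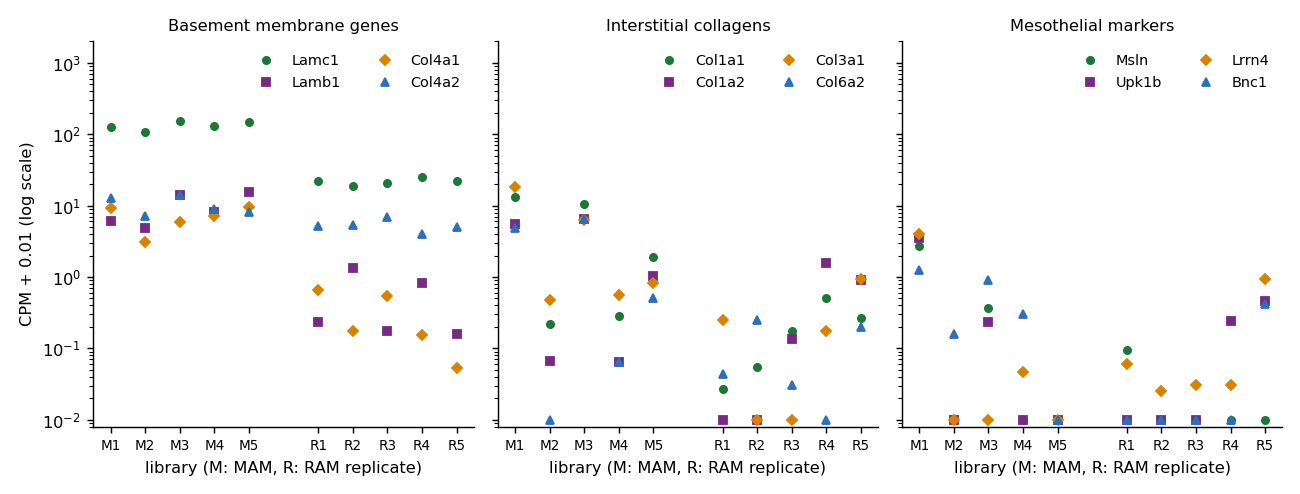
CPM plus 0.01 on a log scale is plotted for each MAM library (M1 to M5) and RAM library (R1 to R5), for basement membrane genes, interstitial collagens and mesothelial markers. The basement membrane genes keep within a narrow range among MAM libraries. The interstitial collagens picked for the figure, Col1a1, Col1a2, Col3a1 and Col6a2, are high in M1 and M3 and low in M2 and M4. Col5a1, Col6a1 and Col6a3, not shown, were highest in M5. Msln, Upk1b and Lrrn4 are highest in M1, and the listed markers Upk3b, Wt1 and Krt19 are not shown.

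The minor fibrillar collagens were at low levels and are given here after their values were seen. Without a filter Col5a1 (log2 fold change 5.78), Col5a2 (5.65), Col5a3 (6.47), Col24a1 and Col27a1 (2.96) were higher in MAMs and Col11a2 was lower (-2.96), all with edgeR. Col5a1, a chain of the fibre that helps nucleate type I fibres, ran from 0.525 to 4.60 CPM in MAMs and from 0.0207 to 0.0685 CPM in RAMs, with no overlap. Its mean of 0.361 FPKM in MAMs was under the limit for testing. Col5a2 was called only with MAM replicate 1 present, and at least 2.48 on the log2 scale parted Col24a1 from its floor in RAMs, where it had no count. Col11a2, a cartilage fibre chain, was at 0.230 to 1.72 CPM in MAMs and 3.42 to 10.9 CPM in RAMs.

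Col15a1 and Lamc1 had the highest mean FPKM of the members in RAMs, 3.30 and 2.99, and their order differed between RAM libraries. Col15a1 encodes the protein core of a proteoglycan that lies next to basement membranes. Its levels were 2.56, 0.169, 1.19, 2.05 and 0.934 CPM in MAM replicates 1 to 5 and 15.5, 23.1, 17.6, 12.4 and 17.1 CPM in RAMs. The groups did not overlap, and the log2 fold change was -3.64 (SE 0.506, adjusted p = 1.9e-05, edgeR). Per length it was at 3.30 FPKM in RAMs and 0.249 in MAMs. Col15a1 (ENSMUSG00000028339.17) lies at chr4:47208161-47313167 on the plus strand of GRCm38. Its relative Col18a1, which holds the endostatin fragment, was not called without a filter (0.58, adjusted p = 0.652) at 0.0181 to 4.00 CPM in MAMs and 0.146 to 2.46 CPM in RAMs.

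Col20a1, a collagen of the group that attaches to fibres, fell too. It was at 1.28, 3.04, 5.66, 0.850 and 0.690 CPM in MAMs and at 14.1, 18.4, 20.3, 9.97 and 11.2 CPM in RAMs, without overlap (log2 fold change -2.69, SE 0.522, adjusted p = 4.3e-04, edgeR). It lies at chr2:180986535-181018363 on the plus strand of GRCm38, and its 1.35 FPKM in RAMs was just inside the limit. Col20a1 shares 79 exon bases (1.54%) with BX649560.1 on the same strand, and the 250 bases before its start lie in annotated exons. In the same group Col14a1 rose, at 3.64, 3.79, 11.1, 10.3 and 8.03 CPM in MAMs and 2.98, 3.17, 1.78, 4.34 and 3.18 CPM in RAMs. These libraries overlapped (log2 fold change 1.26, SE 0.395, adjusted p = 0.0138, edgeR), and the call was lost on log2(FPKM + 0.1) with limma, at 1.04. Col9a3, a chain of a cartilage collagen, did not pass the test (0.72, SE 0.547, adjusted p = 0.278, edgeR), with 1.61 to 7.40 CPM in MAMs and 0.563 to 3.77 CPM in RAMs. Of its exon bases 6.07% overlap Tcfl5, which was at only 0.0192 FPKM in MAMs and 0.0301 in RAMs.

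The other members of that group did not reach the FPKM limit for testing. Col12a1, chosen after its values were seen, held 413 counts in MAM replicate 1, 26 in MAM replicate 2 and none in the other MAM libraries, and was not called. Col16a1 was called without a filter (7.32), at 0.0407, 0.0187, 1.19, 0.507 and 5.78 CPM in MAMs against at most 0.0343 CPM in RAMs.

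Of the 4 collagens that span the cell membrane, 2 were called lower in MAMs, both in the fit without a filter, where 12.9% of all genes were lower. Col23a1 was at 0.468, 2.47, 1.03, 0.832 and 0.833 CPM in MAMs and at 7.48, 7.99, 5.36, 6.57 and 4.05 CPM in RAMs. The groups did not overlap, and it was called without a filter (log2 fold change -2.46, adjusted p = 5.6e-04, edgeR). Col17a1, which anchors epithelial cells to the basement membrane in hemidesmosomes, was at 5.18, 3.75, 5.55, 6.44 and 2.25 CPM in MAMs and at 10.3, 12.9, 13.2, 9.89 and 4.92 CPM in RAMs. These libraries overlapped, and the call without a filter (-1.12, adjusted p = 0.0128, edgeR) was lost without MAM replicate 5. Col13a1 and Col25a1 were not called.

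Summed over the genes, the laminins separated MAM from RAM libraries and the collagens did not. The 11 laminins summed to 151 ± 23.4 CPM in MAMs (SD, n = 5) and 26.6 ± 1.59 CPM in RAMs (SD, n = 5), and Lamc1 held 88.1% and 81.9% of these sums. Without Lamc1 the sums were 17.9 and 4.82 CPM. The 44 collagens summed to 46.7 to 121 CPM in MAM libraries and 73.3 to 107 CPM in RAM libraries, with means of 84.0 ± 32.1 (SD, n = 5) and 87.9 ± 14.1 (SD, n = 5). Col4a2 had the largest share of the collagen sum in MAMs, 12.2%, and Col15a1 in RAMs, 19.5%.

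Markers of other cells were measured beside these levels. The 20 fibroblast and mural cell markers summed to 92.5 to 139 CPM in MAMs and 52.7 to 78.4 CPM in RAMs, but Gsn, an actin-severing protein that macrophages also express, held 71.9% and 61.1% of the sums. Without Gsn the sums were 22.8 to 41.5 CPM in MAMs and 22.2 to 29.7 CPM in RAMs. The fibroblast proteoglycan Lum and 3 other genes of the list had no count in any MAM library. Pdgfra, a growth factor receptor of fibroblasts, rose in MAMs (log2 fold change 4.49, adjusted p = 0.00273, edgeR) and was at 1.54, 1.95, 8.21, 2.17 and 7.31 CPM there, against at most 0.725 CPM in RAMs. Pdgfra does not stand for the list. Of the 20 markers 5 were tested, with 2 called higher and 1 lower, beside 15.3% and 15.1% of all tested genes. Without a filter 4 of the 20 were higher and 3 lower, beside 13.0% and 12.9% of all genes. The median log2 fold change of the 20 in that fit was -0.11.

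The 16 endothelial markers summed to 145 to 182 CPM in MAMs and 578 to 652 CPM in RAMs, with 3 of 6 tested called each way. A single gene, Flt1, held 29.2% of that sum in MAMs and 57.9% in RAMs. The 15 lung epithelial markers summed to 35.9 to 56.9 CPM and 42.4 to 63.7 CPM, with 2 of 7 called higher and 4 lower. The 16 epithelial and tumour cell markers summed to 11.1 to 29.8 CPM in MAMs and 615 to 730 CPM in RAMs, with 5 of 6 called lower, and Krt19 held 65.0% of the sum in RAMs. Beside the calls in these lists, 15.3% of all tested genes were higher and 15.1% lower. The 7 mesothelial markers, Krt19 included, summed to 3.82 to 25.3 CPM in MAMs and 380 to 492 CPM in RAMs. Macrophage markers, 12 in all, summed to 30705 to 37477 CPM in MAMs and 34702 to 43008 CPM in RAMs. Per length in MAMs, Lamc1 at 17.7 FPKM lay above every fibroblast and mural marker but Gsn, at 35.6 FPKM, and the next were Acta2 and Tagln, contractile genes of mural cells, at 2.15 FPKM each. Col1a1 at 1.11 FPKM and Col3a1 at 0.933 FPKM lay near Pdgfra, at 1.02 FPKM, in the mean but not library by library. In MAM replicate 1 Col1a1 and Col3a1 were at their highest CPM and Pdgfra at its lowest among MAM libraries. The part of such cells in the collagen and laminin levels was not tested.

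Genes that make collagen were examined next. Of the 30 genes of synthesis and processing in the files 20 were tested, with 8 higher in MAMs and 3 lower. The median log2 fold change of the 20 was 0.69, and that of all 30 without a filter was 1.47. Over all tested genes 15.3% were higher and 15.1% lower. The largest changes were in P4ha2, a prolyl hydroxylase subunit that stabilizes the triple helix (6.70), Serpinh1, the collagen chaperone HSP47 (6.15), and Adamts2, the protease that removes the amino-terminal propeptide of fibrillar collagens (-5.81), all called with edgeR. Serpinh1 was at 11.1, 4.35, 15.9, 8.76 and 14.7 CPM in MAMs and at most 0.325 CPM in RAMs. Adamts2 was at 0.115 to 0.874 CPM in MAMs and 20.6 to 29.8 CPM in RAMs. The abundant general folding and modifying enzymes P4hb (0.12), Ppib (0.63) and Plod3 (0.55) were all under the 2-fold limit. Ppib is uncertain, with 205 FPKM but only 12.4 CPM in MAMs.

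Receptors and uptake genes came next. Of 19 collagen and laminin receptors and uptake genes 9 were tested, with 2 higher and 1 lower, beside the 15.3% and 15.1% of all tested genes. The median log2 fold change of the 9 was 0.50, and that of all 19 without a filter was 0.02. Ddr2, a tyrosine kinase receptor for fibrillar collagen (5.25), and Bcam, a laminin receptor (2.17), rose, and Itga1, a collagen-binding integrin chain, fell by 1.05 on the log2 scale. The call for Itga1 was lost without MAM replicate 1, 2 or 4 or RAM replicate 3. The most abundant were Mrc1, the mannose receptor that takes up collagen and was part of the sort (-0.89), Itgb1, the shared integrin chain (0.50), and Lair1, an inhibitory collagen receptor (0.73), all under the 2-fold limit.

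Matrix proteins other than collagens and laminins were the last list. Of 18 listed 12 were tested, with 9 higher in MAMs, 1 lower (Emilin1, -1.85, chosen after its value was seen) and a median of 3.89, beside the same shares of all genes. A gene that passed the FPKM limit only through 1 group had to be higher there. Without a filter 10 of the 18 were higher and 3 lower, with a median of 2.65. Of all genes in that fit 13.0% were higher and 12.9% lower. Among the 12 tested, the largest changes were in Tnc, an adhesion-modulating glycoprotein (8.07), Thbs1, thrombospondin (6.74), and Hspg2, the basement membrane proteoglycan perlecan (5.68). Hspg2 was at 11.2, 9.62, 26.5, 13.4 and 17.4 CPM in MAMs and at 0.171 to 0.642 CPM in RAMs. Fn1, fibronectin, was at 903 FPKM in MAMs and 225 in RAMs (2.05), so that it was far above any collagen or laminin per length in both groups. Vcan, the large proteoglycan versican, rose by 5.03 on the log2 scale.

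**Figure D5:**
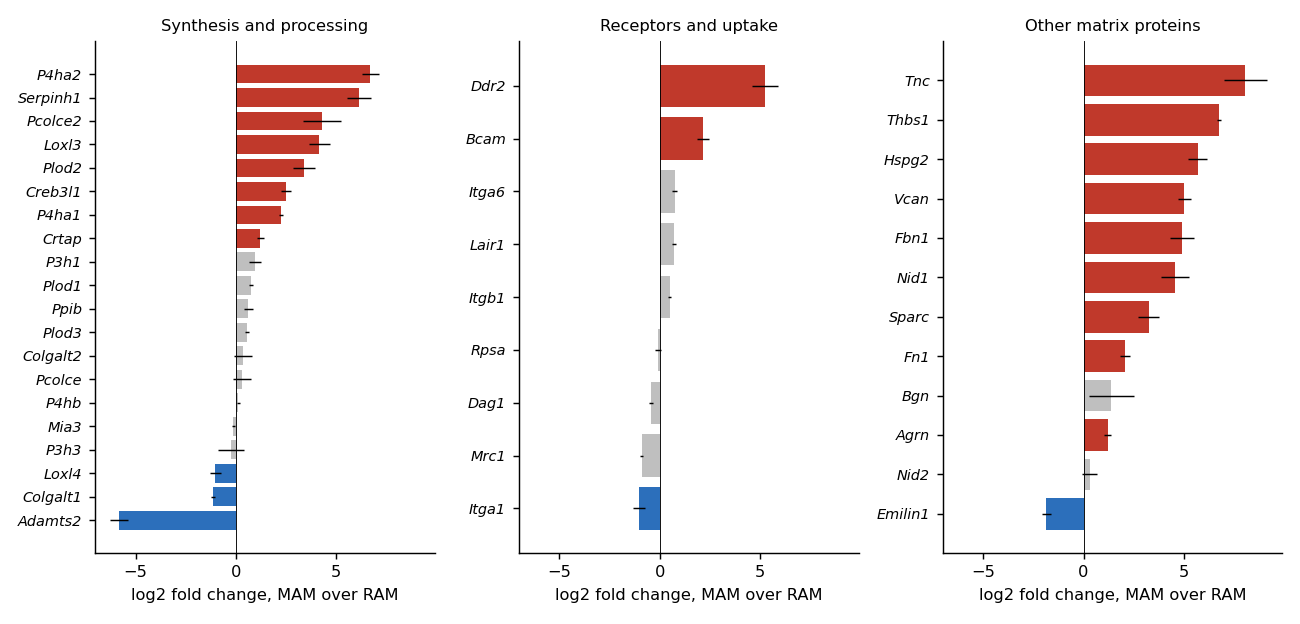
The log2 fold change of MAMs over RAMs with its standard error (error bars) is plotted for the tested genes of collagen synthesis, of receptors and uptake, and of other matrix proteins. Red bars were called higher, blue bars lower and grey bars were not called. Red are 8 of 20 synthesis genes, 2 of 9 receptors and 9 of 12 other matrix proteins, beside 15.3% of all tested genes.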

How the data were processed

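RNA was measured in 5 MAM and 5 RAM libraries (Ovation RNA-Seq System V2, paired reads). Per the labels, the authors aligned to mm10 with TopHat 2.0.13, counted reads per gene with htseq-count (HTSeq 0.6.1) and deposited whole-number counts, and they deposited FPKM from Cufflinks 2.2.1. No strand setting is given in the sources used here. Lines naming no gene, 54.6 to 58.3% in MAMs and 62.2 to 64.1% in RAMs, were left out. Genes whose FPKM averaged 1 or more in MAMs or in RAMs were fitted with edgeR 4.0.16 (R 4.3.3, TMM, quasi-likelihood test of MAM against RAM, Benjamini-Hochberg adjustment). TMM factors were 0.897 to 0.943 in MAMs and 1.07 to 1.10 in RAMs. DESeq2 1.42.0, limma 3.58.1, other scalings and filters, a replicate block and left-out libraries were alternatives. The fits were tested on simulated data. Positions came from GENCODE M21. Replicate numbers did not pair libraries. No pair of libraries was identical. Counts without molecular identifiers are not independent molecules, so limits cover counting error only.

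The members and gene lists were chosen with earlier results of these data known. All tested members are named, then the 5 untested members highest in FPKM and, of other lists, the 3 tested genes that changed most and the 3 most abundant. Any other gene was chosen after its values were seen. The values of 1 member are not reported here.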

Additional observations from a re-analysis of the deposited data

Results flagged for a closer look

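In 5 of the 44 groups of 5 libraries examined, 1 library stood apart by Dixon's ratio, the gap to its nearest neighbour over the whole range, where the 95% limit is 0.71 and chance alone marks about 1 group in 20. Col10a1 was lowest in MAM replicate 4, at 3.24 CPM against 5.77 to 6.00 in the other MAM libraries (ratio 0.917). Col6a1 was highest in MAM replicate 5, at 10.0 CPM against 0.615 to 3.13 (0.733). Col3a1 was highest in RAM replicate 5, at 0.917 CPM against 0 to 0.240 (0.738). Col23a1 was highest in MAM replicate 2, at 2.47 CPM against 0.468 to 1.03 (0.720). The 7 mesothelial markers summed to 25.3 CPM in MAM replicate 1 and to 3.82 to 7.56 in the other MAM libraries (0.826).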

How the results depend on the processing

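The number of members called depended most on the filter. With edgeR's filterByExpr 10 of 29 members were higher and 7 lower, beside 1989 and 1969 of all 13854 genes. Without a filter 15 and 7 of 49 were, beside 2349 and 2323 of 18035. A mean FPKM of at least 1 over all libraries left 4 members, with 1 higher and 1 lower. Of all 10996 genes in that fit 3150 were called, 1579 of them higher. With limma on log2(FPKM + 1) 3 of 10 members were higher, beside 1545 of 11571 genes. Without a filter, 15 of 30 synthesis genes were higher and 3 of 18 other matrix genes lower, beside 13.0% and 12.9% of all genes. With upper-quartile scaling, 2 receptors were lower, the median of all genes moved from -0.02 to -0.18, and 1555 of 3613 called genes were higher, against 1766 of 3511. All 10 tested members kept their direction under each alternative that gave a value. Col14a1 lost its call on log2(FPKM + 1) (0.49), on log2(FPKM + 0.1) (1.04) and in a test against a fold change of 2 (1.26), Col1a1 on the first (0.77) and second (2.04), and Col4a2 gained a call on log2(FPKM + 0.1) (1.33). With 1 library left out Col4a2 ran from 0.82 to 1.07 and the count of receptors called lower from 0 to 1. On log2(FPKM + 1), which understates changes at low levels, Col4a1 was at 1.00, Lamb1 at 1.23, Col15a1 at -1.77 and Col20a1 at -1.06. The cause of the other changes was not tested.

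An alternative divided by library totals over all genes, in place of TMM-scaled totals over the tested genes, so it changed more than TMM. Summed CPM moved with it in laminins (121 in MAMs, 24.6 in RAMs), fibroblast and mural markers (94.5 in MAMs), endothelial markers (133 and 576) and lung epithelial markers (35.8 in MAMs). All MAM sums fell in like proportion, collagens to 66.9, epithelial and tumour markers to 14.1 and mesothelial markers to 7.42, but these moved by less than their SD. Without the most abundant gene the sums were 70.7 for collagens in RAMs, 17.9 and 4.82 for laminins, 33.2 and 25.7 for fibroblast and mural markers, 118 and 262 for endothelial markers, 23.8 for lung epithelial markers in MAMs, and 234 and 1.06 in RAMs for epithelial and tumour and for mesothelial markers.

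Libraries with the same replicate number did not deviate together (correlations from -0.0366 to 0.0294), and with the replicate block 5 members were higher and 2 lower, as without it, with 3526 calls over all genes. Leave-outs in the fit without a filter were chosen after seeing the data and gave 14 to 18 members higher and 6 to 8 lower. At a mean under 1 FPKM, levels of most members rest on few counts, and a missing call does not show equal levels.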

Other observations

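For a few members the counts and the deposited FPKM gave unlike differences. Lama5 had a mean CPM in MAMs 1.71 times that in RAMs, but a mean FPKM 5.95 times as high. Col7a1, the anchoring fibril collagen, was lower in MAMs by CPM (a ratio of 0.273) and not by FPKM (1.24). Lamb1 was at 18.2 times by CPM and 33.3 times by FPKM. Lamc1 was at 6.11 times by CPM and 5.93 times by FPKM.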
